A study of Mus musculus with 5 samples.

Results

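The granuloma that forms around an implanted sponge was compared at 4 and at 2 weeks within the authors' own subclusters of cells. Raw counts of unique molecular identifiers (UMIs, 1 per captured transcript) were summed over the cells of each deposited label of the myeloid, fibroblast and neutrophil subclusterings that had 50 or more cells in both sponge libraries. The limit was met by 14 labels: the myeloid labels C3 to C9, the fibroblast labels F1 to F4 and Low quality, and the neutrophil labels N1 and N2. They held 17435 of the 20048 cells of the sponge libraries, 10676 at 2 weeks and 6759 at 4 weeks, and the series holds 41191 cells. At the limit, C4 entered with 71 cells at 4 weeks, and C1 with 14 and N3 with 11 did not.

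The series holds 5 mouse libraries made with a droplet-based 3' kit: a control of thioglycollate-elicited macrophages, and granulomas at 2 and 4 weeks around sponge and around silk. Each group is 1 library, and the labels give no strain, sex, age or number of pooled animals and no treatment beyond the material and the time. Time and library therefore cannot be told apart, no test across libraries was possible, and every interval given covers counting error only.

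A foreign body granuloma forms where macrophages cannot remove a material: monocytes arrive from blood, become macrophages, may fuse into giant cells, and are walled in by fibroblasts that lay down collagen. Interferons are signals that switch on a common set of defence genes in most cells, and neutrophils are short-lived cells that carry preformed granule proteins. A level summed over a mixed class can differ because its subclusters differ in number or because the cells within each of them differ. Sums within labels keep these apart only as far as each label is uniform, since some labels are themselves mixed.

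Levels are UMI counts scaled to the label's total in that library (CPM). A difference is the log2 ratio of 4 to 2 weeks with 10 CPM added to both levels. A gene was measured in a label where its mean over both libraries was at least 25 CPM and was worth at least 10 UMIs in the shallower library. It is said to have risen or fallen where the ratio was 2-fold or more. The 4-week library gave 7701 cells and 50734356 UMIs, the 2-week library 12347 cells and 96066597 UMIs, and they shared 27 cell barcodes. In all 14 labels the median UMI count per cell was lower and the median share of mitochondrial UMIs higher at 4 weeks, for example 7.35% against 3.68% in C7 and 1.11% against 0.651% in N1.

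The make-up of the classes differed most in the myeloid cells and the neutrophils. C4, led by Aif1, Arg1 and Ms4a6c, held 2542 cells or 34.2% of the deposited myeloid class at 2 weeks (exact 95% interval 33.1% to 35.3%) and 71 cells or 1.47% at 4 weeks (1.15% to 1.85%). C5, led by the complement gene C1qa and the mannose receptor gene Mrc1, went from 18.3% to 9.06%. C7, led by the macrophage elastase gene Mmp12, went from 15.1% to 43.0%, and C6, led by the chemokine gene Ccl24, from 19.8% to 33.3%. The monocyte-led C3 (Chil3, Ly6c2) held 6.54% and 6.29%, and C8, which also carried cell-cycle genes, 1.79% and 1.86%. Among fibroblasts F1 went from 58.8% to 51.1% and F2 from 13.6% to 23.1%. Among neutrophils N1 went from 34.8% to 69.4% and N2 from 54.8% to 27.3%.

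**Figure D1:**
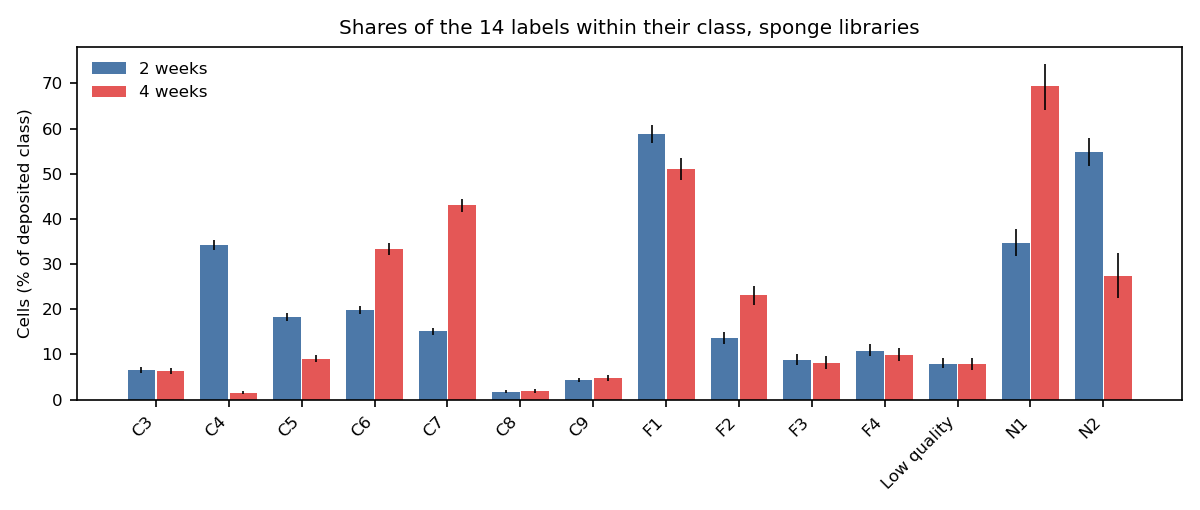
Share of cells of each label in its deposited class (y axis, percent) in the sponge library at 2 and at 4 weeks. Error bars are exact 95% binomial intervals. C4 goes from 34.2% to 1.47%, and C7 from 15.1% to 43.0%.

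The labels were checked against markers of their class. The summed level of 10 monocyte and macrophage markers, all detected, lay between 10988 CPM (C6 at 2 weeks) and 23655 CPM (C5 at 4 weeks) over C3 to C8. C9 held 2319 and 1403 CPM and was led by dendritic and mast cell genes such as Ccl22, Ccr7 and Cma1, so it was kept in the comparison by label and left out of the pooled classes. F4 was led by collagen genes but carried 5029.5 CPM of the monocyte and macrophage markers at 2 weeks and 6608 CPM at 4 weeks, where the other fibroblast labels held 213 to 423 CPM. In F4, 98.0% of cells at 2 weeks and 78.8% at 4 weeks held at least 3 markers of another class. The summed erythroid markers went from 4016 to 3.36 CPM in Low quality, from 2468 to 0.744 CPM in C9, from 667 to 0.992 CPM in C6, from 537 to 2.78 CPM in C8 and from 500.4 to 2.61 CPM in C3. The part of the erythroid markers in the results was not tested. The part of the other markers was not tested either, except where a value without cells that held at least 3 of them is given.

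A pair of genes fell in every label, and none rose in every label. Of 920 genes measured in all 14 labels, 2 (0.217%) fell at least 2-fold in each and 0 (0.00%) rose in each. These 2 were AY036118, annotated as a long intergenic noncoding RNA, and Lars2, which encodes the mitochondrial leucyl-tRNA synthetase. By the counting interval alone, with no limit of size, 16 genes (1.74%) were higher and 6 (0.652%) lower in all 14 labels. The lower genes were AY036118, Lars2, Gm42418, the glycolytic gene Gapdh, the haem oxygenase gene Hmox1 and the ribosomal protein gene Rps29. The higher genes were the mitochondrially encoded mt-Co1, mt-Cytb, mt-Nd1 and mt-Nd4, the early response genes Btg2, Dusp1, Jund, Klf2 and Nr4a1, and Capzb, Cfl1, Gnb2, Oaz1, Pabpc1, Psap and Xbp1. Most changes were not shared. Of 7854 genes measured in at least 1 label, 1668 rose or fell in at least 1, of which 1194 did so in 1 label only, and 75 rose in a label and fell in another.

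AY036118 lies on chromosome 17 from 39847113 to 39848035 on the minus strand and Gm42418 from 39846958 to 39848788 on the plus strand (GRCm38, GENCODE annotation). AY036118 is thus wholly inside Gm42418 on the opposite strand, and whether the authors' counting used strand is not stated, so reads of the pair may not be told apart. Across the 14 labels AY036118 lay between 117 and 1007 CPM at 2 weeks and between 10.7 and 134 CPM at 4 weeks. It was lower at 4 weeks in every label, and the log2 ratio ran from -3.98 to -2.41 with a median of -2.82. Gm42418, with 6793 to 45785 CPM at 2 weeks and 2626 to 19408 CPM at 4 weeks, fell in 13 of 14 labels, the exception being F4 at -0.69. Lars2 (chromosome 9, 123366927 to 123462666) went from 594 to 37.1 CPM in N1, at -3.68 its largest fall, and from 294 to 129.6 CPM in F3, at -1.12 its smallest. With 50 CPM added in place of 10, or with levels taken as means over cells, AY036118 alone fell in all labels. Without cells that held 3 or more markers of another class, 0 genes did, and AY036118, at -2.89 on the log2 scale in F4, was then below the filter on low values in that label. That setting left out 246 of 251 F4 cells at 2 weeks and 126 of 160 at 4 weeks, and Lars2 then did not reach a 2-fold change in F4.

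Acute phase genes and interferon-responsive genes were among those that fell in the next largest numbers of labels. Wfdc17, a small secreted protein gene, fell in 10 of 10 labels that measured it, with log2 ratios from -2.15 to -1.06, for example from 4269.5 to 954 CPM in N1. Ifitm1, an interferon-induced membrane protein gene with close relatives, fell in 8 of 8, and the interferon-induced Ifi27l2a in 9 of 14. Ifrd1 fell in 8 of 14 labels and Gbp2, a guanylate-binding protein gene, in 7 of 12. Ly6a, a surface antigen gene, fell in 7 of 12, with the largest change in C9 from 677 to 22.3 CPM, and stood at 0.89 in Low quality. Cxcl10, the gene of an interferon-induced chemokine, fell in 7 of 12 labels and rose in C4 and N1.

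Saa3 and Ccl8 fell in many labels but by very different amounts. Saa3 encodes a serum amyloid of the acute phase response. It fell in 11 of 13 labels, from 3893 to 3.22 CPM in C4 and from 6758 to 572 CPM in F2, and was -0.90 in F1 and -0.91 in Low quality. In C3, C5 to C8, N1 and N2 its 2-week level was 63.2 to 246 CPM. It also fell in the endothelial, NK/T and myocyte cells of these libraries, from 275 to 4.12, from 51.2 to 5.13 and from 362 to 4.13 CPM. When 5% of each library's mean profile was subtracted from each sum, the log2 ratio was 0 for Saa3 in C7 and -1.06 for Saa3 in C6, -8.65 for Saa3 in C4 and -3.56 for Saa3 in F2. Levels below 0 after the subtraction were set to 0, so a ratio of 0 can mean that no level was left at either time. Ccl8, a monocyte-attracting chemokine gene, fell in 10 of 14 labels. In C5 it went from 4575 to 1141 CPM, and in C4 from 1628 to 19.3 CPM. In F1, F2, F3 and Low quality the log2 ratio of Ccl8 lay between -0.66 and -0.12. Ccl8 was lower in the endothelial and NK/T cells too, going from 69.7 to 9.06 and from 139 to 6.16 CPM. In the whole sponge libraries it went from 795 to 109 CPM. How much of the Ccl8 level of a label came from RNA of other cells was not tested.

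Promoter windows of RefSeq (GRCm38.p6, 250 bases before to 50 after the start) were found for 9 of the 12 genes that fell and 8 of the 12 that rose in the most labels. The 9 include the window listed for AY036118, chr17:39898336-39898635, which does not adjoin the position of that gene given above. Both strands were searched for 4 motifs: the interferon-stimulated response element, written as GAAA, any 2 bases and GAAA again, the antioxidant element TGACNNNGC, the heat shock element GAANNTTC and the AP-1 site TGANTCA. They occur in 3.44%, 12.4%, 7.86% and 7.81% of all 32851 windows. The first was found in 3 of the 9 windows of genes that fell, Saa3, Cxcl10 and Gbp2, and in 0 of the 8 windows of genes that rose. These 3 are shown because they hold that element, and they were chosen after the matches were seen. Capitals mark the matches: the interferon element in all 3, a heat shock element at the end of Saa3, and in Cxcl10 and Gbp2 an AP-1 site, which in Cxcl10 overlaps an antioxidant element. Among the windows not shown, the only matches were of the antioxidant element, in Lars2, which fell, and in Lyz1 and Ccn1, which rose. A match is a string of letters and not a measured site.
Saa3 (chr7:46715627-46715926, minus strand): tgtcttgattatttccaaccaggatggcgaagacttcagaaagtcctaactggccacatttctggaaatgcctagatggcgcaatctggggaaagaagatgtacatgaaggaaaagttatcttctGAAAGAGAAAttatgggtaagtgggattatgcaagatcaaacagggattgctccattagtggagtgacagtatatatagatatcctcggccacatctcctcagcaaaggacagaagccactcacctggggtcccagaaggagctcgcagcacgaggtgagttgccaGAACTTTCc
Cxcl10 (chr5:92348840-92349139, minus strand): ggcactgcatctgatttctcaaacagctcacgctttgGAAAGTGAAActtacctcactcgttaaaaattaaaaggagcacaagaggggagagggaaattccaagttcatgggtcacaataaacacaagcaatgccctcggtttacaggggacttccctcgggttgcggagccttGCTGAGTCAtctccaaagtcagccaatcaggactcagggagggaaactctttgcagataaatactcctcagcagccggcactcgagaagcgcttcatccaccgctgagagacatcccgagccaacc
Gbp2 (chr3:142620413-142620712, plus strand): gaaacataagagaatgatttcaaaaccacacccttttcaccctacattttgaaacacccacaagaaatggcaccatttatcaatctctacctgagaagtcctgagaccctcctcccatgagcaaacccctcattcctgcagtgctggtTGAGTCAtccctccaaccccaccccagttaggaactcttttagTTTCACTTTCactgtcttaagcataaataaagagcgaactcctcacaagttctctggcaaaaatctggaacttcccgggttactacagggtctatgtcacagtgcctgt

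Apart from mitochondrially encoded and predicted genes, several of which rose in more labels, the genes that rose in the most labels included early response genes and others that fewer labels measured. Klf2, a transcription factor gene on chromosome 8 (72319033 to 72321656), rose in 9 of 14 labels and its log2 ratio was above 0 in all, from 0.65 to 1.62. In N2 it went from 1464 to 3298 CPM, in F2 from 247 to 776 CPM, and in C3 from 122 to 384 CPM. Nr4a1, an orphan nuclear receptor gene, rose in 7 of 14, from 131 to 713 CPM in N1 and from 112 to 561 CPM in N2, and stood at 0.14 in F2. Jund, a subunit gene of AP-1, rose in 6 of 14 and ranged from 0.62 to 1.33. Bhlhe40 rose in 5 of 14 labels and Ier2 in 5 of 14, both transcriptional regulators.

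Among the genes that fewer labels measured, Lyz1, one of a near-identical pair of lysozyme genes, rose in 7 of 7 labels that measured it, with log2 ratios from 1.30 to 4.80. In C7 it went from 294 to 1058 CPM and in C5 from 125 to 694 CPM. Of its 488 UMIs in C4 at 4 weeks, 316 came from a single cell of 71. Ctsk, the gene of the collagen-cutting cathepsin K, rose in 6 of 12 labels and was -0.81 in C8. Fxyd2, a modulator gene of the sodium pump, rose in 6 of 7, Rassf2 in 6 of 11, the fractalkine receptor gene Cx3cr1 in 5 of 6 and Gfod1 in 5 of 7. Ccn1, a matricellular protein gene, rose in 5 of 5, all of them fibroblast labels.

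**Figure D2:**
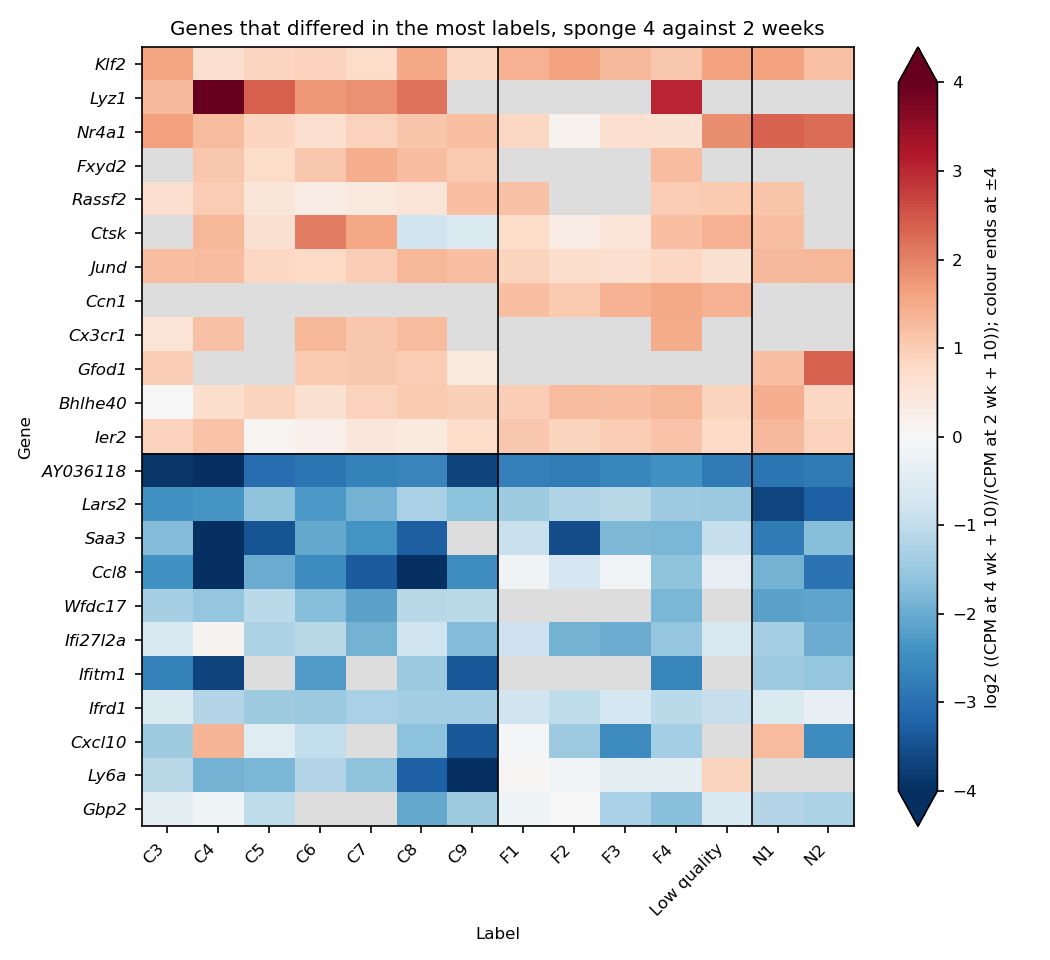
log2 ratio of 4 to 2 weeks (colour, ends at 4 and -4) for genes that rose or fell in the most labels (rows) in each of the 14 labels (columns), with grey where a gene was not measured. AY036118 and Lars2 are blue in every column, while Cxcl10 is red in C4 (1.37) and N1 (1.27).

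**Figure D3:**
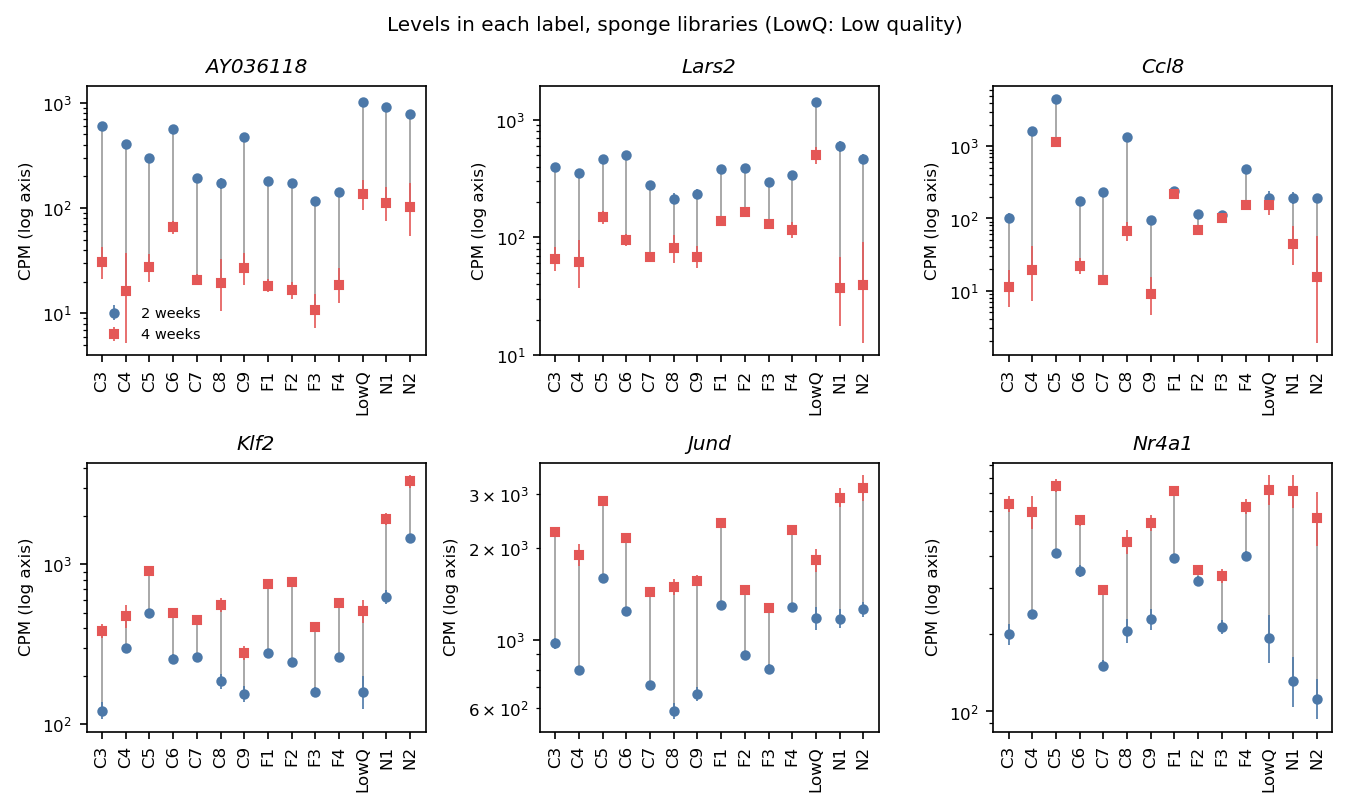
Level of 6 genes in CPM (log axis) in each label at 2 weeks (circles) and 4 weeks (squares), joined by a grey line, with exact Poisson 95% intervals. In every label AY036118, Lars2 and Ccl8 lie lower and Klf2, Jund and Nr4a1 higher at 4 weeks. The intervals of Ccl8 overlap in F3 and in Low quality.

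The median mitochondrial share of the cells was higher at 4 weeks in all 14 labels, while the mitochondrially encoded genes differed among themselves. mt-Nd1, a subunit gene of respiratory complex I, rose in 11 of 14 labels and stood at 0.41 in Low quality. Of the 13 genes of the list, 6 rose and 1, mt-Nd6, fell in C7, and 9 rose in F4. The list's median was 0.98 in C7 and 1.04 in F4, beside 0.07 and 0.01 over all measured genes. Over the labels mt-Nd4 rose in 9 of 14 and mt-Cytb in 9 of 14, while mt-Nd6 fell in 7 of 11, mt-Atp8 in 5 of 13 and mt-Nd4l in 4 of 13. In the neutrophil pool at fixed shares, 0 of 12 genes of the list rose and 2 fell, with a median of 0.27 beside 0.28 over all measured genes. Without cells over 10% mitochondrial UMIs, 3 genes fell in all labels, Gm42418 being added to AY036118 and Lars2.

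AY036118 and Lars2 were lower outside the 14 labels as well. In endothelial, NK/T and myocyte cells of the sponge libraries AY036118 stood at -2.97, -3.34 and -2.87 and Lars2 at -1.14, -2.93 and -1.12. In the same cells Klf2 stood at 1.41, 1.53 and 1.42. In whole libraries AY036118 stood at 189.5 CPM in the control, at 291 and 24.9 CPM in sponge at 2 and 4 weeks, and at 248 and 9.64 CPM in silk. Both 4-week libraries were thus below both 2-week libraries and the control.

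Around silk, 8 labels had 50 or more cells at both times. AY036118, Lars2 and Gm42418 fell there in 8 of 8 labels, the first with a median of -4.10 and Lars2 with -2.20. Klf2 was above 0 in 8 of 8 and rose in 2. Ccl8 was above 0 in 2 of 2 silk labels that measured it, Cxcl10 in 3 of 3 and Gbp2 in 4 of 4, while all 3 were below 0 in the same labels around sponge. mt-Nd1 ranged from -0.21 to 0.70 around silk. Whether sponge and silk differed was not tested.

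Within the myeloid class many differences came with the change in labels. With C3 to C8 pooled, 68 of 4880 measured genes rose (1.39%) and 141 fell (2.89%). Each CPM difference was split exactly into a part from the change in the labels' shares of UMIs and a part from the change within labels, and was assigned to the part that made up 70% or more. Of the 68 genes that rose, 5 were assigned to composition, 17 to change within labels, and 46 were mixed. Of the 141 that fell, 40 were assigned to composition, 28 to change within labels, and 73 were mixed. With the labels held at their mean shares, 17 and 42 of these still passed 2-fold. The shares are of UMIs, so this split does not itself separate the number of cells of a label from the RNA per cell. Nor does it separate a change in the make-up inside a label from a change in its cells. C4 went from 37.7% to 1.40% of the UMIs of the class and from 34.2% to 1.47% of its cells. C7 went from 24.5% to 63.2% of the UMIs and from 15.1% to 43.0% of the cells. Without C4, 9 genes were assigned to composition in place of 45. With the 13 labels of all classes except C9 pooled, 41 of 5326 rose (0.770%) and 109 fell (2.05%), of which 1 and 19 were assigned to composition.

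The composition genes were led by those of labels that shrank or grew. Mmp12, the leading gene of C7, rose from 1004 to 2643 CPM in the pool, and 79.2% of the difference was composition. At fixed shares its log2 ratio was 0.29 in place of 1.39, and within labels it rose in C6 (1.82), fell in C4 (-1.63) and stood at 0.34 in C7. The tetraspanin gene Cd9 and Mfge8, whose product bridges phagocytes to dying cells, followed with 78.6% and 83.3%. In the other direction Ly6e, Ccl4, Plac8, Ly6c2 and Ms4a6c led. The inflammatory monocyte gene Ly6c2 fell from 394 to 126 CPM in the pool but stood at 0.40 at fixed shares, with 698 CPM at 2 weeks and 1295 CPM at 4 weeks within C4, which held 71 cells at 4 weeks. Of the other pooled labels that measured it, Ly6c2 fell in C6 from 290.3 to 128 CPM and went in C3 from 1705 to 1505 CPM. The chemokine gene Ccl4 went from 707 to 188 CPM in the pool, a log2 ratio of -1.85, and stood at 0.22 at fixed shares. For both, the composition part exceeded the whole difference, at 134% for Ly6c2 and 115% for Ccl4.

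The myeloid genes assigned to change within labels included several of those shared across labels. Lyz1, for which the part of RNA from other cells was not tested, stood at 2.65 pooled and 2.38 at fixed shares. Axl, a receptor tyrosine kinase gene used in the uptake of dying cells, rose from 35.4 to 111 CPM with 1.42 pooled and 1.47 at fixed shares, and within labels it rose in C4, C5, C6 and C7. Ephx1, Gfod1 and Fxyd2 were the others that led upward, with 1.12, 1.12 and 1.19 at fixed shares. AY036118, Wfdc17, Lars2 and Ifrd1 were among those that led downward, with -3.15, -1.53, -1.99 and -1.27 at fixed shares.

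**Figure D4:**
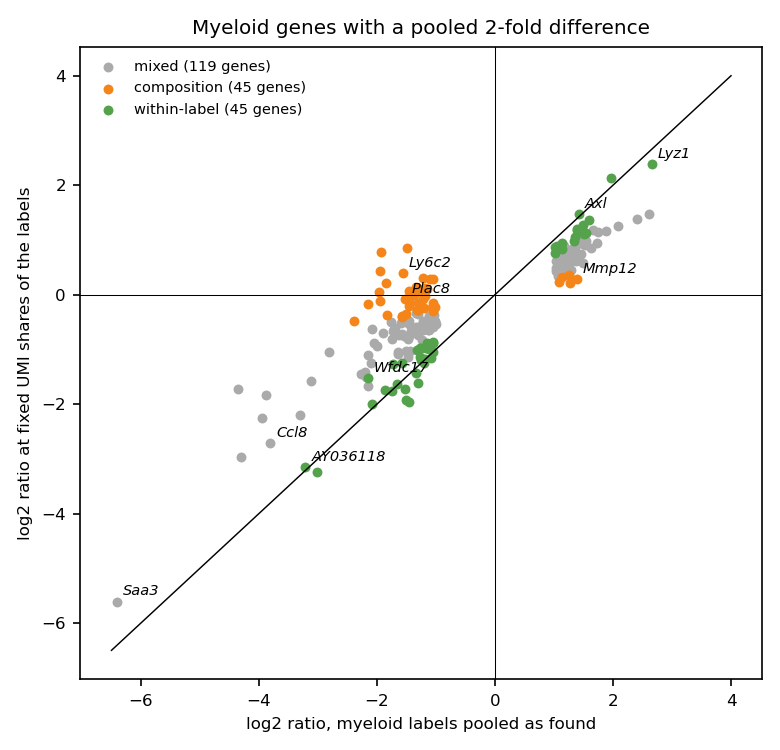
The 209 myeloid genes that rose or fell in the pool of C3 to C8, by pooled log2 ratio (x axis) and log2 ratio with the labels held at their mean UMI shares (y axis), coloured by the part that made up 70% or more of the difference. On the diagonal both values are the same, as nearly for AY036118, while Ly6c2 (0.40) and Plac8 (-0.08) lie near 0 on the y axis.

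Gene lists in the myeloid pool differed between the pooled view and the view within labels. Of 21 measured genes of the type I interferon response, 15 fell in the pool and the median was -1.24, beside 0.05 over all measured genes. At fixed shares 0 fell and 1 rose, and the median was -0.03. The labels went opposite ways. In C4, 9 of 27 rose and 0 fell, with a median of 0.87 beside 0.14 over all, and the list's medians in the other myeloid labels lay between -1.07 in C9 and -0.36 in C3. In C4 Ifit1 went from 49.1 to 325 CPM, Ifit3 from 24.4 to 199.8 CPM and Ifit2 from 45.7 to 258 CPM, all genes of interferon-induced antiviral proteins. At 4 weeks Ifit1 had 101 UMIs in 21 of 71 C4 cells, 28 of them in a single cell. Isg15, the gene of a ubiquitin-like modifier, rose in C4 from 349 to 751 CPM and fell in C9 from 305 to 58.7 CPM and in C8 from 111 to 16.7 CPM. Without C4 the list's median at fixed shares was -0.64. Isg15 and other members named for a single label that are neither among its leading 5 nor among the leading members of a list were chosen after their values were seen.

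The other immune lists separated as well. Of 9 measured genes of the interferon gamma response, 9 fell in the pool with a median of -1.55, and at fixed shares 1 fell and the median was -0.43. The 6 measured genes of MHC class II presentation had a median of -0.45 pooled and 0.62 at fixed shares, with 0 that rose and 0 that fell in the pool. Without C4 their pooled median was 0.25. At fixed shares C4 counted at its mean UMI share of both libraries, although it held only 71 cells at 4 weeks. Of 16 classical inflammatory genes, 11 fell and 1 rose in the pool, with a median of -1.32, while at fixed shares 4 fell and the median was -0.51. Without C4 their pooled median was -0.69. The lipid-associated programme of 18 measured genes, known from macrophages that take up lipid and debris, had medians of 0.22 pooled and -0.24 at fixed shares, with 0 that rose and 4 that fell at fixed shares.

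**Figure D5:**
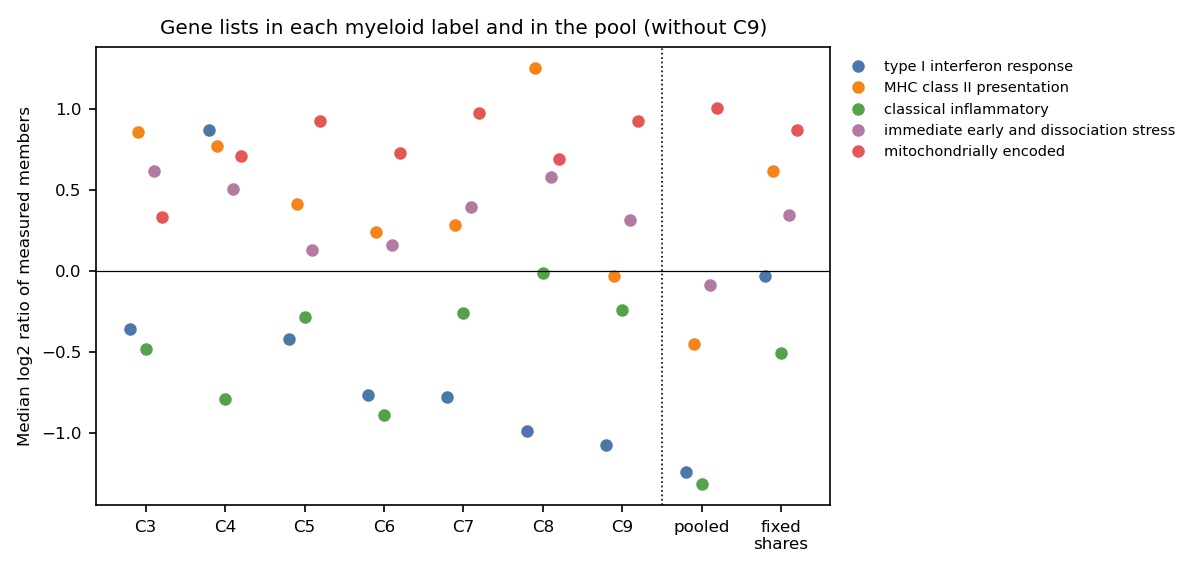
Median log2 ratio (y axis) of the measured members of 5 gene lists (colours) in each myeloid label, in the pool of C3 to C8 and at fixed UMI shares. The type I interferon list lies at 0.87 in C4 and below 0 in the other labels, and MHC class II goes from -0.45 pooled to 0.62 at fixed shares.

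C4 had the fewest cells at 4 weeks. In C4, 159 of 4057 measured genes rose (3.92%) and 107 fell (2.64%), and with the median ratio centred 89 rose and 161 fell. Axl rose there from 33.0 to 235 CPM. The genes that fell included that of inducible nitric oxide synthase, Nos2, from 226 to 12.9 CPM, and that of arginase, Arg1, from 1055 to 58.0 CPM. Arg1 had UMIs in 1238 of 2542 cells at 2 weeks and in 6 of 71 at 4 weeks. The fatty acid carrier gene Fabp5 fell from 2412 to 267 CPM, and the cyclooxygenase gene Ptgs2 from 1122 to 232 CPM. Of 18 measured genes of the NRF2 and oxidative stress list, 8 fell and 0 rose, Hmox1 among them from 1848 to 422 CPM, and the list's median was -0.68.

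C5, C6 and C7 had fewer changed genes. In C5, 13 of 4936 measured genes rose (0.263%) and 29 fell (0.588%), in C6, 24 of 4860 measured genes rose (0.494%) and 48 fell (0.988%), and in C7, 31 of 4706 measured genes rose (0.659%) and 44 fell (0.935%). In C5 Mfge8 rose from 13.1 to 62.9 CPM and Retnla, a gene of alternative activation, from 307 to 736 CPM, and Plac8 fell from 179.5 to 40.7 CPM. In C6 Ctsk rose from 89.4 to 400.1 CPM, the chemokine gene Cxcl14 from 14.1 to 85.0 CPM and Mmp12 from 114 to 428 CPM. Of 16 classical inflammatory genes measured in C6, 7 fell and 0 rose, among them the cytokine genes Il1b from 3674 to 1692 CPM, Tnf from 275 to 106 CPM and Il6 from 39.7 to 10.9 CPM. In C7 Ctsk rose from 907 to 2657 CPM and Mt3, a metallothionein gene, from 109.5 to 346 CPM. In that label Fabp4, Fabp5, Ctsl and Spp1 of the lipid-associated programme fell, Fabp5 from 3386 to 913 CPM and Spp1, the osteopontin gene, from 11436 to 5642 CPM.

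In C8 genes of an osteoclast-like set fell. In this label, 130 of 5290 measured genes rose (2.46%) and 154 fell (2.91%). Mmp9, a gelatinase gene, went from 1372 to 4.16 CPM, Acp5, the tartrate-resistant acid phosphatase gene, from 1096 to 122 CPM, Ocstamp, needed for osteoclast fusion, from 80.8 to 5.55 CPM, and Nfatc1, a master transcription factor of osteoclasts, from 181 to 20.8 CPM. The macrophage fusion and osteoclast-like list had 6 of 12 measured genes that fell and 2 that rose, the tetraspanin genes Cd9 and Cd81, and a median of -1.64 beside 0.06 over all. The 2309 UMIs of Mmp9 at 2 weeks came from 22 of 133 cells, 434 of them from a single cell, and at 4 weeks 3 of 90 cells held 1 UMI each.

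Most measured MHC class II genes rose in the same label. In C8, 5 of 7 MHC class II genes rose, with H2-Aa from 1110.0 to 3066 CPM and the invariant chain gene Cd74 from 2064 to 6669 CPM. The dendritic cell genes Ccl17 and Cd209a rose to 124 and 101 CPM, and the summed dendritic cell markers went from 156 to 558 CPM, whose part in these values was not tested. Of 17 measured chemokine genes, 3 rose in C8 and 4 fell, with a median of -0.09 beside 0.06 over all. Ccl8 fell from 1348 to 66.6 CPM, and the neutrophil-attracting Cxcl3 rose from 9.51 to 325 CPM, with UMIs in 25 of 90 cells at 4 weeks. Of 30 nuclear oxidative phosphorylation genes, 7 fell in C8 and 0 rose, with a median of -0.69.

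C3 and C9 are the monocyte-led and the dendritic and mast cell-led labels. In C3, 72 of 4496 measured genes rose (1.60%) and 48 fell (1.07%), and with the median ratio centred 35 rose and 76 fell. Fosb, an early response gene, rose in C3 from 267 to 734 CPM, and Dmkn, the dermokine gene, fell from 246 to 36.5 CPM. In C9, 76 of 4573 measured genes rose (1.66%) and 98 fell (2.14%), and with the median ratio centred 55 rose and 118 fell. The dendritic cell chemokine genes Ccl17 and Ccl22 rose in C9 from 231 to 1146 and from 943 to 3460.3 CPM, and Dcstamp, a fusion gene also found in dendritic cells, from 17.5 to 114 CPM. Of 18 measured type I interferon genes, 11 fell in C9, and the interferon gamma-induced Cxcl9 went from 113 to 4.46 CPM. Summed dendritic cell markers went from 3371 to 6589.8 CPM in C9 and mast cell markers from 693 to 387 CPM, and their part in these values was not tested. Over the 7 myeloid labels together, 7 of 3246 genes measured in all fell in each (0.216%) and 0 rose in each (0.00%). Among them were AY036118, Gm42418, Lars2, Ccl8, Ly6a and Wfdc17.

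In fibroblasts little came with composition. With the 5 labels pooled, 33 of 5156 genes rose (0.640%) and 39 fell (0.756%). Of these 29 and 36 were assigned to change within labels, 0 to composition, and 4 and 3 were mixed. Of 3726 genes measured in all 5 labels, 3 rose in each (0.0805%) and 3 fell in each (0.0805%). Ccn1, Klf2 and Gsn, the gene of the actin-severing gelsolin, were those that rose, and Gsn went from 2014 to 5994 CPM in F1. AY036118 and Lars2 were among those that fell. In F1 to F4 without Low quality, 8 of 4386 rose (0.182%), adding mt-Cytb, mt-Nd1, mt-Nd2, mt-Nd4 and 1 predicted gene, and 7 fell (0.160%), adding Cxcl9, Rps18, Rpl35 and Gm10076. Cxcl9 went from 145 to 10.3 CPM in F3 and from 177 to 18.0 CPM in F4. Of 17 collagen genes measured in the fibroblast pool, 0 rose and 0 fell, counts near the shares over all genes, and the list's median was 0.36 beside 0.02 over all measured genes.

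Changes in F1 and F2 included genes that changed in other fibroblast labels too. Il1rl1 fell in F1, F2, F4 and Low quality, Ptx3 in F2, F3, F4 and Low quality, and Mmp13 rose in F1, F3, F4 and Low quality. In F3 at 4 weeks, 86 of the 152 UMIs of Mmp13 came from 1 cell, and 17 of 132 cells held any. In F1, 36 of 4940 measured genes rose (0.729%) and 25 fell (0.506%). The collagenase gene Mmp13 rose there from 7.92 to 58.9 CPM and the stromelysin gene Mmp3 from 666 to 1350.4 CPM. Il1rl1, the interleukin-33 receptor gene, fell in F1 from 558 to 155 CPM and Ptn, the gene of the growth factor pleiotrophin, from 639 to 206 CPM. In F2, 63 of 5150 measured genes rose (1.22%) and 98 fell (1.90%), and with the median ratio centred 46 rose and 114 fell. In F2 the crystallin gene Cryaa rose from 51.4 to 264 CPM, with UMIs in 69 of 314 cells at 2 weeks and 237 of 374 at 4 weeks. Igfbp5, an insulin-like growth factor binding protein gene, rose from 196 to 762 CPM, and Tnfrsf11b, which encodes the decoy receptor osteoprotegerin, from 37.8 to 153 CPM. Rarres2, the chemerin gene, fell in F2 from 1111 to 53.9 CPM, the acute phase genes Hp and Ptx3 from 957 to 90.4 and from 316 to 28.9 CPM, and the WNT inhibitor gene Sfrp1 from 369.7 to 30.2 CPM. Of 16 measured fibroblast inflammatory genes, 6 fell in F2 and 0 rose, with a median of -0.78 beside 0.08 over all.

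F3 is the fibroblast label with cell-cycle genes, and F4 and Low quality are the most mixed. In F3, 53 of 5447 measured genes rose (0.973%) and 47 fell (0.863%). Cryaa rose there from 11.1 to 110.4 CPM and Stra6, a retinol transporter gene, from 7.88 to 69.4 CPM. The mast cell genes Cma1 and Mcpt4 fell in F3 from 55.6 to 0.344 and from 53.5 to 0.688 CPM, but 260 of 261 and 251 of 251 UMIs at 2 weeks came from single cells. In F4, 57 of 5315 measured genes rose (1.07%) and 61 fell (1.15%). The neutrophil genes S100a8 and S100a9 stood at -2.72 and -2.84 in F4, and without the cells that held 3 or more markers of another class at 2.72 and 1.92. That setting left out 246 of 251 F4 cells at 2 weeks and 126 of 160 at 4 weeks, so the last 2 values rest on very few cells. In Low quality, 193 of 4113 measured genes rose (4.69%) and 256 fell (6.22%). The keratin gene Krt14 had 0 UMIs there at 2 weeks, which allows up to 3, and 389.8 CPM at 4 weeks, with all 116 UMIs in 3 of 127 cells. The muscle gene Tnnc2 had 294 CPM at 2 weeks, with 130 of its 136 UMIs in 1 cell, and 0 UMIs at 4 weeks.

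Neutrophils held the largest shares of changed genes among the classes, again mostly within labels where N1 and N2 alone were pooled. In N1, 347 of 2354 measured genes rose (14.7%) and 67 fell (2.85%), and in N2, 215 of 1492 measured genes rose (14.4%) and 99 fell (6.64%). The median ratio of all genes was shifted by 0.37 in N1 and 0.27 in N2 on the log2 scale, against 0.15 in C3, 0.16 in C4 and at most 0.09 elsewhere. With that median centred, 129 rose and 146 fell in N1, and 123 rose and 149 fell in N2. Both labels shared 96 genes that rose (6.72% of 1428) and 27 that fell (1.89%). In the pool of N1 and N2, 311 of 3037 rose (10.2%) and 95 fell (3.13%), with 280 and 74 assigned to change within labels and 0 to composition. N3, left out with 11 cells at 4 weeks, held 27.8% of the UMIs of the class at 2 weeks and 7.08% at 4 weeks. With all deposited labels pooled, some neutrophil genes were assigned to composition, as counted in the last section. The median UMI count per cell was 1762.5 at 2 weeks and 1101 at 4 weeks in N1, and 1843.5 and 1283.5 in N2.

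Granule genes fell in the neutrophils, and genes of a list of immediate early and dissociation stress genes rose. Of 11 measured granule and immature genes, 8 fell in N1 and 0 rose, with a median of -1.19, and in N2, 4 of 9 fell. Over all measured genes 2.85% fell in N1 and 6.64% in N2. Lcn2, the gene of an iron-withholding lipocalin, fell from 2048 to 468 CPM in N1 and from 2941 to 211 CPM in N2. S100a9, a calprotectin gene, fell from 113861 to 46595 CPM in N1. Of 25 genes of the immediate early and dissociation stress list, 14 rose in N1 with a median of 1.17 beside 0.33 over all. In N2 11 of 24 rose, with a median of 0.92 beside 0.25. The part of cell dissociation in these values was not tested. Egr2, a transcription factor gene of that list, went from 13.9 to 187 CPM in N2.

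Most measured growth factor genes rose in both neutrophil labels, while few chemokine genes rose or fell. Of the chemokine genes, 3 of 12 rose and 1 fell in N1, where 14.7% of all measured genes rose and 2.85% fell. In N2 0 of 9 rose and 2 fell, where 14.4% of all measured genes rose and 6.64% fell. In the neutrophil pool 0 of 12 rose and 2, Ccl8 and Cxcl10, fell, with a median of -0.39 beside 0.28 over all measured genes. The cytokine genes Il1a and Il23a fell in N2, from 428 to 70.2 and from 209.7 to 31.2 CPM. In N1 the chemokine gene Ccl3 rose from 1506 to 6812 CPM and the chemokine receptor gene Cxcr4 from 355 to 1214 CPM. Of the growth factor genes, 4 of 6 rose in N1 and 4 of 5 in N2, beside 14.7% and 14.4% of all measured genes. Tgfb1 rose from 53.0 to 379 CPM in N1, and Csf1, the macrophage growth factor gene, from 365 to 1344 CPM in N1 and from 1274 to 2830.1 CPM in N2. Prok2, a secreted attractant gene, rose in N2 from 29.7 to 951 CPM, but its 122 UMIs at 4 weeks came from 8 of 90 cells. Slc38a1, an amino acid transporter gene, rose from 46.8 to 368 CPM in N1 and from 57.5 to 678 CPM in N2. Summed neutrophil markers went from 231069 to 105998 CPM in N1 and from 123001 to 65148 CPM in N2, and monocyte and macrophage markers from 8608 to 7269 and from 5639 to 4499 CPM. Their part in the neutrophil values was not tested.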

How the data were processed

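Cells of 5 mouse libraries were profiled with a droplet-based 3' kit, 1 library per group. Raw UMI counts of 21617 genes were deposited, and a table of the cells by the authors gives each cell's library, class, subcluster and percent of mitochondrial UMIs. Cell Ranger 3.0.0, Seurat 3.0 and mm10 are named, without roles, per the submitters' processing notes, and filters on cells are not stated there. Cells held at least 201 detected genes and at most 25.0% mitochondrial UMIs.

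Counts were summed per label and library and scaled to CPM in Python 3.11.15 with numpy 2.4.6, scipy 1.17.1 and pandas 2.3.3. Intervals are conditional binomial for ratios, Poisson for levels and Clopper-Pearson for shares, at 95% and for counting error only. Label totals ran from 128262 UMIs (N2 at 4 weeks) to 20719150 (F1 at 2 weeks). The calls and intervals were run on simulated counts that held counting error only. That run cannot show how they behave where the UMIs of a gene gather in few cells. No doublet caller was run, and an alternative left out cells with 3 or more markers of another class. The classes screened were fibroblast, NK and T, B and plasma, and endothelial cells. Fibroblast labels were screened for monocyte and macrophage and for neutrophil markers in place of their own. Myeloid labels were not screened for neutrophil markers, nor neutrophil labels for macrophage markers. No label was screened for erythroid, dendritic, mast, keratinocyte or muscle markers. Labels with more markers of another class than of their own among their 10 leading genes, set against cells of other classes, were left out of the pools, which removed C9. That reference was chosen after seeing the data. Set against all other cells, C6 and C8 of the 6 pooled myeloid labels and F4 and Low quality of the 5 fibroblast labels would be left out too. Without them 67 myeloid genes were assigned to composition and 43 to change within labels, and 0 and 64 fibroblast genes. Alternatives also varied the offset, the filter, the scaling, the cells, the labels and the limit of the split.

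The labels, the 34 gene lists, the 15 marker lists and the rules were chosen with earlier results of these data known. Genes are named by rule: up to 12 per direction that changed in the most labels, the 5 highest and 5 lowest per label, the 5 leading composition and within-label genes per class, the 5 largest opposite pairs, and up to 4 per list and class, with sex-linked, antigen receptor, haemoglobin, predicted, ribosomal and mitochondrial genes by list only. Other names, Gm42418 included, were chosen after their values were seen. Values of some genes that these rules select are not reported here. Positions are from the GENCODE annotation of GRCm38.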

Additional observations from a re-analysis of the deposited data

Results flagged for a closer look

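In 5 genes the change went opposite ways in a pair of labels, at least 2-fold in each, which drew attention to them. None of these differences was tested. S100a9, a calprotectin gene of neutrophils, rose by 3.04 in C8 and fell by 2.84 in F4 on the log2 scale, a gap of 5.88. Of its 154 UMIs in C8 at 4 weeks, 144 came from 1 cell, and without cells over 10% mitochondrial UMIs it stood at -0.35 in C8. Mmp13, a collagenase gene, rose by 2.44 in Low quality and fell by 3.07 in C4, a gap of 5.50. In Low quality at 4 weeks, 25 of the 34 UMIs of Mmp13 came from 1 cell, and 5 of 127 cells held any. It rose in 4 labels and fell in 2. Inhba, which encodes a subunit of activin, rose by 2.48 in N1, where its 78 UMIs at 4 weeks came from 20 of 229 cells, and fell by 2.44 in C4, a gap of 4.92. Dmkn, the dermokine gene, rose by 2.01 in Low quality, with 40 UMIs in 4 of 127 cells at 4 weeks, and fell by 2.46 in C3, a gap of 4.47. Lsmem1 rose by 2.30 in N1 and fell by 1.94 in Low quality, a gap of 4.24.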

How the results depend on the processing

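No paired analysis was possible because each group is 1 library and the labels carry no replicate number. Of 296 recomputed summary values over 32 results, 251 held, meaning that they stayed within a set fold of the main value, 45 moved and 0 reversed. Most of the 32 results were counts, which could only hold or move, so the 0 bears on list medians alone. A median could reverse only where its main value was large enough. The pooled MHC class II median of -0.45 was too small for that, and its change of sign without C4 was counted as moved. With 50 CPM added, the changed genes numbered 34 in C3, 93 in C4, 25 in C5, 31 in C6, 34 in C7, 111 in C8, 62 in C9, 19 in F1, 72 in F2, 42 in F3, 56 in F4, 143 in Low quality, 156 in N1 and 207 in N2. Then 1 gene fell in all labels, 5 rose in 7 or more labels, 22 myeloid genes were assigned to composition and 28, 29 and 125 myeloid, fibroblast and neutrophil genes to change within labels. With 1 CPM added, they numbered 223 in C3, 72 in C5, 427 in C8, 285 in C9, 151 in F3 and 179 in F4. Without the CPM limit C9 had 267, and with the median ratio centred N1 had 275. As a mean over cells, C5 had 64, C7 47, F4 216 and Low quality 720, and 1 gene fell in all labels. Without cells over 10% mitochondrial UMIs, Low quality had 297, and 1 neutrophil gene was assigned to composition. Without cells with 3 markers of another class, 0 genes fell in all labels and 5 rose in 7 or more, fewer genes being measured in F4. With all deposited labels pooled, 33 neutrophil genes were assigned to composition. With a part of 50% in place of 70%, 107 and 102 myeloid genes went to composition and to change within labels, and 4 neutrophil genes to composition. Without C4, chosen after seeing the data, 9 myeloid genes went to composition, and the medians were -0.64 for type I interferon at fixed shares, 0.25 for pooled MHC class II and -0.69 for pooled classical inflammatory genes. With each of the other labels left out in turn, 2 genes fell in all, or 3 without F4. Among 1344 values of single genes, 1224 held, 112 moved and 8 reversed. Without cells over 10% mitochondrial UMIs the value that reversed was S100a9 in C8 (-0.35). Without cells with 3 markers of another class the others were S100a9 in C8 (-0.70), Mfge8 in C8 (0.19), Cma1 in F3 (0.029), Mcpt4 in F3 (0.17), Ccl24 in F4 (-0.39), S100a9 in F4 (1.92) and S100a8 in F4 (2.72). In F4 that setting left out 246 of 251 cells at 2 weeks and 126 of 160 at 4 weeks. The causes were not tested. Depth limits N2, N1, Low quality and C4 most, which had the fewest UMIs at 4 weeks.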
